A study of Mus musculus with 18 samples.

Results

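Psmb8, Psmb9, Psmb10, Psme1, Psme2, Tap1 and Tap2, the immunoproteasome and antigen transport genes, are described here as 7 genes matched by symbol among the 24318 genes of a table of fragment counts and FPKM. FPKM is fragments scaled for transcript length and library depth. All 7 genes were found and all 7 passed the filter on low counts. The 18 poly(A) RNA libraries came from immortalised mouse embryonic fibroblasts (MEFs), a line in which the genes of all small Maf proteins (MafF, MafG, MafK) are deleted. One line expresses T-N1G (T-NG1 in the genotype labels), a tethered heterodimer of Nrf1 (gene Nfe2l1) and MafG, and the other is its mock counterpart. T-N1G cells and mock cells each received vehicle, 0.3 µM MG132 or 1.0 µM MG132, a peptide aldehyde that blocks the proteasome, for 12 h, with 3 libraries a group. Controls of both kinds therefore carry the same MafF-/-::MafG-/-::MafK-/- background, so no group with small Maf proteins of its own enters any comparison. Whether the libraries of a group are separate cultures, whether a line is 1 clone and which promoter drives T-N1G is not stated in the labels. The p-values therefore speak of variation among these libraries alone, and that variation may be technical.

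The proteasome degrades proteins in a 20S core whose cutting sites lie in the subunits encoded by Psmb5, Psmb6 and Psmb7. Immune cells, and other cells exposed to interferon-gamma, build an immunoproteasome in which Psmb8, Psmb9 and Psmb10 take the places of Psmb5, Psmb6 and Psmb7. Psme1 and Psme2 encode the alpha and beta subunits of the PA28 activator ring, which caps the core, and Tap1 and Tap2 encode the transporter that carries the resulting peptides into the endoplasmic reticulum for loading on MHC class I molecules. Nrf1, paired with a small Maf protein, binds antioxidant response elements (ARE) and drives the constitutive proteasome genes when the proteasome is inhibited, whereas the immunoproteasome and transporter genes are known as genes that interferon induces, in part through IRF factors.

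The genes of 4 members lie side by side in the MHC on mouse chromosome 17, in the deposited positions of build mm9. Psmb9 (chr17:34319044-34324275), Tap1 (chr17:34324501-34334170), Psmb8 (chr17:34335140-34338399) and Tap2 (chr17:34341424-34353266) follow each other with gaps of 225, 969 and 3024 bases. Psme1 (chr14:56197331-56204091) and Psme2 (chr14:56206277-56209938) are neighbours on chromosome 14, 2185 bases apart, and Psmb10 lies at chr8:108459628-108462292. Psmb9 and Tap1 are read in opposite directions from the ends of 1 shared stretch of 225 bases, shown here because both genes start from it. In RefSeq's build GRCm38.p6 it spans chr17:34187331-34187555, printed on the plus strand, from the base before the start of Psmb9 to the base before the start of Tap1, with a match to the ARE core in capitals. The 250 bases before the start of Psmb8 (chr17:34197945-34198194, plus strand) are shown for their match to the interferon-gamma activated site (GAS), also in capitals.
Psmb9-Tap1 shared stretch: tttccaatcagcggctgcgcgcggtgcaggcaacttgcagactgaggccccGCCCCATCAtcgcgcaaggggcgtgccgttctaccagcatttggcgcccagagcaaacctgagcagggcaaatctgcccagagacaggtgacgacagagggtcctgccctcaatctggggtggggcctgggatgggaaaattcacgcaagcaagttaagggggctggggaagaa
Psmb8 upstream: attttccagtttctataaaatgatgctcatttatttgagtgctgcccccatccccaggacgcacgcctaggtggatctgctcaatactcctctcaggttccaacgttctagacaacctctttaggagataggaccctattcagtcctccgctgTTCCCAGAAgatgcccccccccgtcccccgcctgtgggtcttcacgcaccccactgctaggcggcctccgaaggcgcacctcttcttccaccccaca

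RefSeq promoters were matched for 6 of the 7 genes by symbol, with Tap2 the exception. The 250 upstream bases were searched on both strands for 4 motifs. The ARE core, TGANNNNGC, was found in the shared Psmb9 and Tap1 stretch and in the window of 1 of the 2 listed starts of Psme2, and 35.2% of the 32851 promoters of the table hold it. GAS, TTCNNNGAA, was found for Psmb8 alone of the 6, its first base 97 bases before the start, against 7.02% of all promoters. Neither the ISRE, GAAANNGAAA (2.98% of all promoters), nor a stricter ARE, TGACNNNGC (10.16%, every one of which also matches the ARE core), was in any of these windows. A match is a description of letters and says nothing about binding.

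Depth was 18164380 to 21293709 fragments per library, and the members took 2 to 1063 fragments each, so counting error alone is wide for Psmb9 (2 to 16 fragments a library) and Psmb8 (8 to 115). Levels below are CPM (counts scaled to library depth after TMM normalization) unless FPKM is named. The labels were checked on Mafg, which had 0.2763 to 1.32 CPM in mock libraries. Mafg in T-N1G libraries had 141.7 to 172.4 CPM under vehicle, 693.4 to 885.8 at 0.3 µM and 2701 to 4238 at 1.0 µM. Nfe2l1 had 1022 to 1169, 4012 to 4986 and 14690 to 21500 CPM there, against 272.8 to 393.4 CPM in mock libraries. The construct and the endogenous gene are counted together in both. These levels rose with dose in T-N1G cells, so construct level and dose cannot be told apart in any line difference under MG132. Maff and Mafk gave counts in both lines, which checks nothing because the deleted parts are not given. Summed fibroblast markers stood at 12220 to 16390 CPM in T-N1G and 14100 to 19230 CPM in mock libraries. Single fibroblast markers went both ways between lines at 1.0 µM. Vim differed by -1.31 ± 0.249 and Pdgfra by 0.55 ± 0.173 (adjusted p = 2.69e-04 and 0.0114, edgeR). Col3a1 (-0.48) and Col5a1 (-0.45) were also called lower in T-N1G cells, and the other fibroblast markers tested were not called. Markers of other cell types moved with the groups, and their part in the results was not tested. Summed leukocyte markers stood at 19.05 to 21.62 CPM in T-N1G and 12.96 to 18.18 CPM in mock cells at 1.0 µM, against 6.166 to 7.779 and 8.032 to 9.258 CPM under vehicle. Of the 15 in the table, 11 to 13 were under 1 CPM in every library of a group, and Tyrobp had no fragment in any library, while Cd14 had 76 to 224, Cd68 33 to 96, Cd74 4 to 97 and Csf1r 2 to 120 fragments a library. Csf1r, a growth factor receptor of macrophages, was at 1.0 µM higher in T-N1G cells by 3.14 ± 0.515 on the log2 scale than in mock cells (adjusted p = 4.16e-05, edgeR). Other leukocyte markers did not share that size of difference. Cd14 was higher by 0.49 ± 0.182 (adjusted p = 0.0269, edgeR), while Ptprc (0.47), Cd68 (-0.28) and Cd74 (-0.46) did not pass the threshold. Summed endothelium markers, mostly Kdr, stood at 25.09 to 38.63 CPM in T-N1G and 63.42 to 87.03 CPM in mock cells at 1.0 µM, against 5.017 to 6.811 and 5.978 to 6.77 CPM under vehicle. Single endothelium markers went both ways between lines at 1.0 µM. Kdr differed by -1.27 ± 0.172, Pecam1 by 2.57 ± 0.511 and Tek by 1.46 ± 0.506 (adjusted p = 5.08e-06, 0.00027 and 0.0179, edgeR). Cdh5 differed by 0.40 ± 0.352 (adjusted p = 0.338, edgeR). Summed epithelium markers, mostly Krt19, stood at 40.96 to 59.08 CPM in T-N1G and 300.9 to 430.7 CPM in mock cells at 1.0 µM, against 77.71 to 84.48 and 188.8 to 192.7 CPM under vehicle. Under vehicle Krt19 differed between lines by -1.26 ± 0.147 and Cdh1 by 1.37 ± 0.341 (adjusted p = 1.39e-05 and 0.00974, edgeR). The other epithelium markers tested were not called there. In bulk RNA, fewer cells of a type and less RNA per cell cannot be told apart.

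Per length, Psme2 had the highest mean FPKM of the 7 genes in T-N1G cells under each treatment and in mock cells at 1.0 µM, and the catalytic subunits Psmb8 and Psmb9 had the lowest means in all 6 groups. On the FPKM scale, T-N1G cells under vehicle averaged 42.2 for Psme2, 38.4 for Psme1, 10.6 for Psmb10, 5.70 for Tap1, 3.65 for Tap2, 0.980 for Psmb8 and 0.830 for Psmb9. T-N1G cells at 1.0 µM averaged 42.6 FPKM for Psme2, 21.05 for Tap2, 17.96 for Psme1, 10.2 for Tap1, 7.61 for Psmb10, 4.38 for Psmb8 and 0.824 for Psmb9. Tap2 thus lay below Psmb10 and Tap1 under vehicle and above both at 1.0 µM. Mock cells at 1.0 µM averaged 34.9 FPKM for Psme2, 27.1 for Psme1, 7.92 for Tap1, 6.14 for Psmb10, 4.76 for Tap2, 3.18 for Psmb8 and 0.8235 for Psmb9, and there Tap2 stayed below Psmb10.

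**Figure D1:**
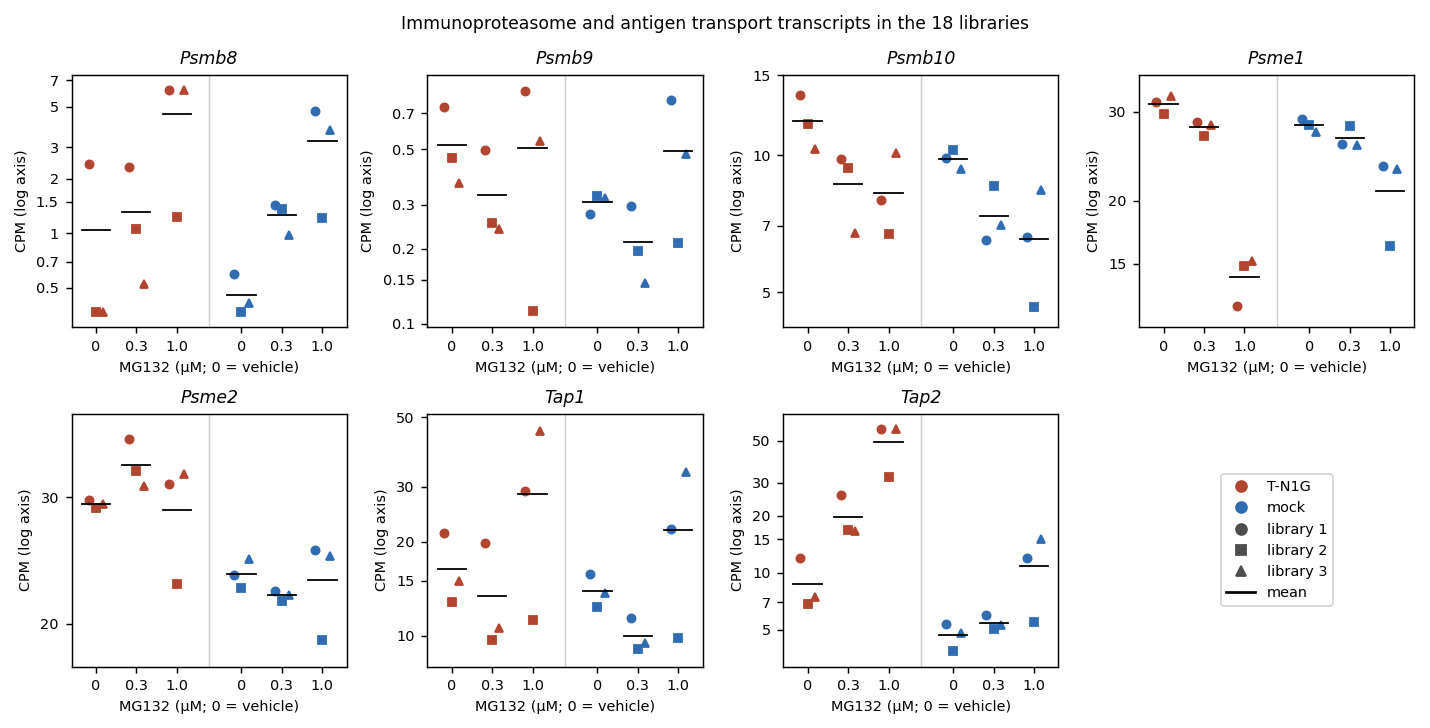
CPM of each gene (log axis, a different range in each panel) in every library, by line and MG132 dose; each point is 1 library, its shape the library number, and the bar is the mean of 3. Tap2 climbs with dose in T-N1G cells, Psme1 is lowest in T-N1G cells at 1.0 µM, and library 2 is the lowest of its group at 1.0 µM for 6 of 7 genes in T-N1G and 7 of 7 in mock cells.

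Tap2, one subunit of the TAP transporter, gave the widest called change of the 7 genes between lines. It had 12.0, 6.86 and 7.46 CPM in T-N1G cells under vehicle, 25.7, 16.9 and 16.6 CPM at 0.3 µM and 57.7, 32.3 and 57.6 CPM at 1.0 µM. Mock cells had 5.34, 3.84 and 4.79 CPM under vehicle, 5.96, 5.04 and 5.32 CPM at 0.3 µM and 12.0, 5.49 and 15.2 CPM at 1.0 µM. In the order of group means, T-N1G at 1.0 µM stood apart from T-N1G at 0.3 µM, which stood apart from mock at 1.0 µM. Mock at 1.0 µM overlapped T-N1G under vehicle, and the 2 lowest groups, mock at 0.3 µM and mock under vehicle, overlapped each other. Tap2 was higher in T-N1G cells than in mock by 2.17 ± 0.322 (log2 fold change ± SE) at 1.0 µM and by 1.86 ± 0.340 at 0.3 µM (adjusted p = 2.97e-05 and 3.59e-04, edgeR). Under vehicle the difference was 0.91 ± 0.353 with an adjusted p of 0.0962 (edgeR), higher in all 3 T-N1G libraries than in any mock library.

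Tap2 rose with MG132 in both lines at 1.0 µM and in T-N1G cells at 0.3 µM. At 1.0 µM against vehicle it rose by 2.49 ± 0.326 in T-N1G cells and by 1.23 ± 0.351 in mock cells on the log2 scale (adjusted p = 4.69e-06 and 0.00586, edgeR). At 0.3 µM against vehicle it rose by 1.17 ± 0.324 in T-N1G cells (adjusted p = 0.00579, edgeR), and the value in mock cells was 0.22 ± 0.368 (adjusted p = 0.637). The step from 0.3 µM to 1.0 µM added 1.32 ± 0.307 in T-N1G and 1.00 ± 0.348 in mock cells (adjusted p = 0.00193 and 0.0263, edgeR), of which the mock call was lost in 4 of 18 fits that left out 1 library (0.68, adjusted p = 0.148 without mock library 3 at 1.0 µM). The response at 1.0 µM differed between the lines by 1.26 ± 0.474 (adjusted p = 0.0419, edgeR). That last call was lost in 12 of 18 fits that left out 1 library and when no low count filter or only the 4 groups compared were used, as the closing section gives.

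Tap1, the partner of Tap2 in the transporter, did not pass the test in any of the 11 comparisons, and passed in 1 of them with the replicate number as a block. It had 21.4, 12.8 and 15.0 CPM in T-N1G cells under vehicle, 19.8, 9.71 and 10.6 CPM at 0.3 µM and 29.1, 11.3 and 45.0 CPM at 1.0 µM. Mock cells had 15.8, 12.4 and 13.7 CPM under vehicle, 11.4, 9.10 and 9.51 CPM at 0.3 µM and 21.9, 9.87 and 33.4 CPM at 1.0 µM. In both lines the 3 libraries at 1.0 µM spread over a wide range, with library 2 below every vehicle library of its line, and all neighbours in the order of the 6 group means overlapped. The log2 change at 1.0 µM against vehicle was 0.80 ± 0.466 in T-N1G and 0.64 ± 0.472 in mock cells (adjusted p = 0.135 and 0.240, edgeR). Without the number 2 libraries of both lines at 1.0 µM, an alternative chosen after seeing the data, it was 1.18 ± 0.299 and 1.06 ± 0.304 (adjusted p = 0.00262 and 0.00704, edgeR). Same-numbered libraries were also taken as pairs between 0.3 µM and vehicle in T-N1G cells, where Tap1 was lower at 0.3 µM in all 3 pairs. The log2 change there was -0.29 ± 0.477 in the unpaired fit (adjusted p = 0.621, edgeR). Between lines at 1.0 µM, where same-numbered libraries were taken as pairs, Tap1 was higher in the T-N1G library of all 3 pairs. That log2 difference was 0.39 ± 0.462 (adjusted p = 0.488, edgeR), 0.37 ± 0.354 with the block over all groups (adjusted p = 0.379) and 0.34 ± 0.0983 with the block and only these 2 groups (adjusted p = 0.0107), the last chosen after seeing the data.

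The balance of the transporter pair was compared within each library. Tap2 stood at 67.1%, 64.0% and 59.5% of Tap1 in FPKM in T-N1G cells under vehicle, at 155.5%, 209.0% and 187.4% at 0.3 µM and at 237.3%, 343.6% and 152.9% at 1.0 µM. In mock cells it stood at 40.1%, 37.1% and 41.8% of Tap1 under vehicle, 63.0%, 66.5% and 67.2% at 0.3 µM and 65.5%, 66.8% and 54.5% at 1.0 µM. The 3 T-N1G libraries lay above the 3 mock libraries under vehicle and at both doses of MG132, and this ratio, in which library 2 at 1.0 µM is not low, is given as a description with no test.

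**Figure D2:**
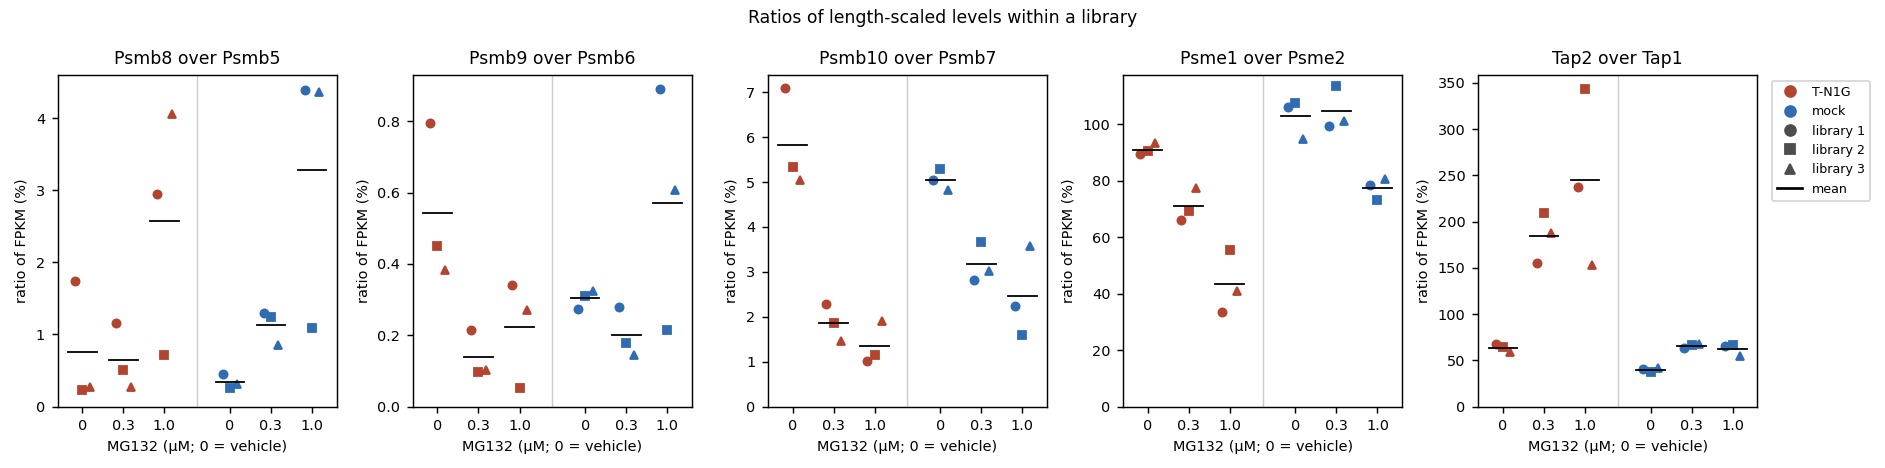
Ratio of FPKM, in percent and from 0, within each library for each immunoproteasome subunit over its constitutive counterpart, Psme1 over Psme2 and Tap2 over Tap1; points are libraries and bars are means of 3. The ratio of Tap2 to Tap1 is at least 152.9% in every T-N1G library with MG132 and at most 67.2% in every mock library, and Psmb10 over Psmb7 is lower with MG132 than under vehicle in both lines.

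Of the PA28 activator, Psme1 fell with 1.0 µM MG132 in both lines and further in T-N1G cells. It had 31.4, 29.8 and 32.3 CPM in T-N1G cells under vehicle, 28.7, 26.9 and 28.3 CPM at 0.3 µM and 12.4, 14.8 and 15.2 CPM at 1.0 µM. Mock cells had 29.1, 28.3 and 27.3 CPM under vehicle, 26.0, 28.2 and 25.9 CPM at 0.3 µM and 23.5, 16.3 and 23.1 CPM at 1.0 µM. T-N1G at 1.0 µM was the lowest group and lay below all mock libraries, and mock at 1.0 µM was the next lowest, apart from the rest. Against vehicle, Psme1 at 1.0 µM fell by 1.14 ± 0.115 in T-N1G and by 0.43 ± 0.111 in mock cells on the log2 scale (adjusted p = 5.07e-08 and 0.00222, edgeR), and the responses differed by -0.71 ± 0.159 (adjusted p = 0.00146, edgeR). At 1.0 µM it was lower in T-N1G cells than in mock by a log2 change of -0.57 ± 0.116 (adjusted p = 3.71e-04, edgeR). Against 0.3 µM, the fall at 1.0 µM was 0.98 ± 0.115 in T-N1G and 0.35 ± 0.112 in mock cells (adjusted p = 2e-06 and 0.0157, edgeR), of which the mock call was lost without library 2 at 1.0 µM (-0.15, adjusted p = 0.174) or library 2 at 0.3 µM (-0.31, adjusted p = 0.0607). Without mock library 2 at 1.0 µM the change from vehicle in mock cells was -0.21 (adjusted p = 0.0479). Under 0.3 µM the change from vehicle was -0.16 ± 0.109 in T-N1G and -0.08 ± 0.110 in mock cells, neither past the threshold in this unpaired fit. The locus of Psme1 overlaps Emc9, which had 4 to 36 fragments a library, against 202 to 702 for Psme1.

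Psme2, the other PA28 subunit, did not pass the main, unpaired test in any comparison of MG132 with vehicle. It was higher in T-N1G cells than in mock at both doses of MG132. T-N1G cells had 29.7, 29.0 and 29.4 CPM under vehicle, 36.1, 32.6 and 31.0 CPM at 0.3 µM and 31.3, 22.7 and 32.4 CPM at 1.0 µM. Mock cells had 23.4, 22.4 and 24.6 CPM under vehicle, 22.2, 21.5 and 21.95 CPM at 0.3 µM and 25.3, 19.0 and 24.9 CPM at 1.0 µM. The libraries of the lines did not overlap under vehicle or at 0.3 µM and overlapped at 1.0 µM. Psme2 was higher in T-N1G cells by 0.60 ± 0.120 at 0.3 µM and by 0.32 ± 0.121 at 1.0 µM on the log2 scale (adjusted p = 4.48e-04 and 0.0283, edgeR), and by 0.32 ± 0.119 under vehicle (adjusted p = 0.0745). The call at 1.0 µM was lost in 10 of 18 fits without 1 library, where it went as low as 0.14 (without mock library 2 at 1.0 µM), and by scaling to library size alone (0.26, adjusted p = 0.0685). With 1.0 µM against vehicle, Psme2 changed by -0.03 ± 0.119 in T-N1G and -0.03 ± 0.121 in mock cells, with 95% intervals of -0.26 to 0.20 and -0.26 to 0.21.

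Psme2 has a near-identical copy in the table, Psme2b, so its value is uncertain where fragments fit both. Psme2b had 71 to 292 fragments a library, against 359 to 729 for Psme2, and moved the other way between lines. At 1.0 µM it had 4.79, 5.02 and 7.15 CPM in T-N1G and 16.5, 9.29 and 12.1 CPM in mock cells. That was a log2 difference of -1.15 ± 0.219 (adjusted p = 1.78e-04, edgeR). Against vehicle it rose by 0.72 ± 0.212 in mock cells at 1.0 µM (adjusted p = 0.00575, edgeR). In T-N1G cells that value was -0.21 ± 0.224 (adjusted p = 0.394, edgeR). Whether the line difference of Psme2 remains with both copies counted together was not tested. Within a library, Psme1 stood at 33.6%, 55.4% and 41.1% of Psme2 in FPKM in T-N1G cells at 1.0 µM and at 89.3%, 90.5% and 93.2% under vehicle. In mock cells the ratio was 78.6%, 73.0% and 80.6% at 1.0 µM and 106.0%, 107.4% and 94.9% under vehicle. All 3 libraries at 1.0 µM were below all 3 under vehicle in each line, and the T-N1G libraries at 1.0 µM were below the mock libraries, a description with no test.

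Psmb8, which encodes the immunoproteasome's chymotrypsin-like site (LMP7), rose at 1.0 µM in both lines from a low level. It had 2.41, 0.368 and 0.368 CPM in T-N1G cells under vehicle, 2.33, 1.06 and 0.525 CPM at 0.3 µM and 6.202, 1.24 and 6.23 CPM at 1.0 µM. Mock cells had 0.599, 0.370 and 0.411 CPM under vehicle, 1.44, 1.37 and 0.975 CPM at 0.3 µM and 4.74, 1.21 and 3.74 CPM at 1.0 µM. Library 1 of T-N1G under vehicle held 52 fragments, against 8 in each of the other 2, and library 2 at 1.0 µM was low in both lines, so neighbours in the order of group means overlapped throughout. At 1.0 µM against vehicle Psmb8 rose by 2.11 ± 0.730 in T-N1G and by 2.79 ± 0.835 in mock cells on the log2 scale (adjusted p = 0.0164 and 0.00804, edgeR). The T-N1G call was lost without library 2 or 3 under vehicle or library 1 or 3 at 1.0 µM (1.72 to 1.85, adjusted p = 0.055 to 0.0608), and without library 1 under vehicle the change was 3.62. The step from 0.3 µM to 1.0 µM added 1.80 ± 0.716 in T-N1G cells (adjusted p = 0.0419, edgeR), a call lost in 11 of 18 fits without 1 library. Between lines Psmb8 differed by 0.50 ± 0.657 at 1.0 µM and by 1.18 ± 0.927 under vehicle (adjusted p = 0.532 and 0.442), and the vehicle value was -0.32 without library 1 of T-N1G.

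Psmb9, which encodes LMP2, was near the floor of detection, and no comparison passed the threshold. T-N1G cells had 0.741, 0.460 and 0.368 CPM under vehicle, 0.495, 0.253 and 0.239 CPM at 0.3 µM and 0.860, 0.113 and 0.542 CPM at 1.0 µM, and mock cells had 0.276, 0.324 and 0.319 CPM, 0.298, 0.196 and 0.146 CPM, and 0.789, 0.211 and 0.480 CPM at the same treatments. It had 2 to 16 fragments a library. At 1.0 µM against vehicle the log2 change was -0.07 ± 0.516 in T-N1G cells, with a 95% interval of -1.08 to 0.94, and 0.66 ± 0.555 in mock cells (adjusted p = 0.907 and 0.298, edgeR). Without the number 2 libraries at 1.0 µM the mock value was 1.08 ± 0.441 (adjusted p = 0.0377, edgeR).

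Psmb10, which encodes the trypsin-like site (MECL-1), fell with 1.0 µM MG132 in both lines. It had 13.6, 11.7 and 10.3 CPM in T-N1G cells under vehicle, 9.81, 9.36 and 6.73 CPM at 0.3 µM and 7.98, 6.71 and 10.1 CPM at 1.0 µM. Mock cells had 9.86, 10.3 and 9.31 CPM under vehicle, 6.50, 8.57 and 7.02 CPM at 0.3 µM and 6.60, 4.65 and 8.40 CPM at 1.0 µM. Every library with MG132 was below every vehicle library of its line, and the means of the MG132 groups overlapped each other. The fall at 1.0 µM was 0.52 ± 0.195 in T-N1G and 0.58 ± 0.199 in mock cells on the log2 scale (adjusted p = 0.0222 and 0.0147, edgeR). At 0.3 µM it fell by 0.46 ± 0.193 in T-N1G cells (adjusted p = 0.0481, edgeR) and the value in mock cells was -0.41 ± 0.196 (adjusted p = 0.085). These calls were close to the threshold: the one at 0.3 µM was lost with the replicate number as a block (adjusted p = 0.0522) and in 12 of 18 fits without 1 library, and those at 1.0 µM without the number 2 libraries (-0.38, adjusted p = 0.0591 in T-N1G, and -0.32, adjusted p = 0.126 in mock cells).

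Counted over the 7 genes, between 0 and 4 passed an adjusted p of 0.05 (edgeR) in a comparison. In each of the 11 comparisons of the main fit the share of the 7 was below the share of all 13258 genes tested that were called. Without the number 2 libraries at 1.0 µM, the share of the 7 was above that of all genes in both dose steps. It was also above in mock cells at 1.0 µM against vehicle, and below in T-N1G cells. In the main fit, T-N1G against mock under vehicle gave 0 of 7, where 16.1% of all genes were called (8.43% higher and 7.72% lower). There DESeq2 called 1 of 7, and 2 of 7 were at an unadjusted p under 0.05 (edgeR). At 0.3 µM the lines differed in 2 of 7, Tap2 and Psme2, both higher, where 48.5% of all genes were called and 25% were higher. At 1.0 µM they differed in 3 of 7, Tap2 and Psme2 higher and Psme1 lower, where 61.9% were called, 30.7% higher and 31.3% lower.

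Against vehicle, 1.0 µM MG132 gave 4 of 7 in T-N1G cells, where 76.4% of all genes were called, 37.5% higher and 38.9% lower. It also gave 4 of 7 in mock cells, where 69.7% were called, 32.4% higher and 37.4% lower. In each line these were Psmb8 and Tap2, higher, and Psmb10 and Psme1, lower. At 0.3 µM against vehicle the count in T-N1G cells was 2 of 7, Tap2 higher and Psmb10 lower, where 59.4% were called, 29.1% higher and 30.3% lower. This count is from the unpaired fit, and the closing section gives the paired one. In mock cells it was 0 of 7, where 53.1% were called, 25% higher and 28.1% lower. In that mock comparison 1 of 7, Psmb10, was at an unadjusted p under 0.05 (edgeR) and DESeq2 called 0.

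The dose step gave 3 of 7 in T-N1G cells, where 60% of all genes were called, 29.3% higher and 30.8% lower. In mock cells it gave 2 of 7, where 49.6% were called, 21.8% higher and 27.8% lower. The interaction of line and dose gave 0 of 7 at 0.3 µM, where 25.1% of all genes were called, and there 0 of 7 were at an unadjusted p under 0.05 (edgeR) and DESeq2 called 0. At 1.0 µM it gave 2 of 7, Tap2 higher and Psme1 lower, where 45% were called, 22.9% higher and 22.1% lower. The median log2 change of the 7 at 1.0 µM against vehicle was -0.03 in T-N1G and 0.64 in mock cells, beside -0.0057 and -0.042 over all genes. Comparisons against vehicle and the interactions share their vehicle libraries, so these counts are not independent of each other.

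**Figure D3:**
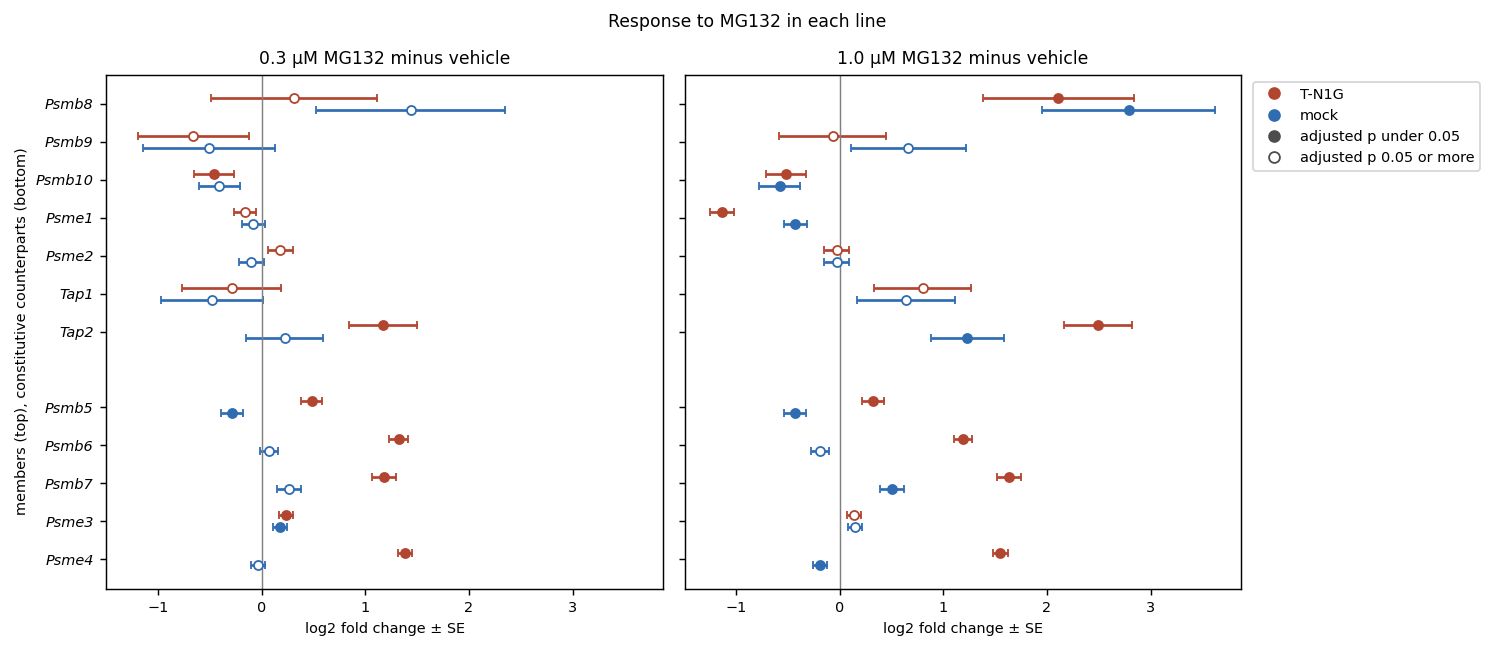
Log2 fold change ± SE at 0.3 µM and 1.0 µM MG132 against vehicle in each line for the 7 genes and, below them, their constitutive counterparts; filled points passed an adjusted p of 0.05. At 1.0 µM Tap2 stands at 2.49 in T-N1G and 1.23 in mock cells and Psme1 at -1.14 and -0.43, while Psmb6, Psmb7 and Psme4 stand at 1.19, 1.63 and 1.55 in T-N1G and -0.19, 0.50 and -0.19 in mock cells.

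The constitutive core genes were measured beside the immunoproteasome subunits. At 1.0 µM against vehicle, all 14 constitutive 20S core genes rose in T-N1G cells (37.5% of all genes were called higher), with a median log2 change of 1.31, beside -0.0057 over all genes. Of the same 14 in mock cells, 3 rose and 7 fell, with a median of -0.25, beside -0.042 over all genes, of which 32.4% were called higher and 37.4% lower. The interaction was called higher for all 14 at each dose (14.2% and 22.9% of all genes were called in that direction), with medians of 1.23 at 0.3 µM and 1.32 at 1.0 µM, while for Psmb8, Psmb9 and Psmb10 it was -0.68 ± 1.14, -0.73 ± 0.757 and 0.06 ± 0.278 at 1.0 µM, none of them called. Psmb5 averaged 116.6 ± 19.1 CPM (SD, n = 3) in T-N1G and 66.2 ± 8.89 CPM in mock cells at 1.0 µM, against 93.5 ± 7.39 and 88.9 ± 3.46 CPM under vehicle. Psmb7 averaged 455.5 ± 96.3 CPM in T-N1G and 196.2 ± 23.9 CPM in mock cells at 1.0 µM, against 146.9 ± 10.2 and 139.0 ± 0.735 CPM under vehicle, and Psmb6 rose by 1.19 ± 0.0894 in T-N1G cells on the log2 scale (adjusted p = 1.04e-09, edgeR).

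Of the other activators, Psme4, which encodes PA200, rose by 1.55 ± 0.0699 in T-N1G cells at 1.0 µM on the log2 scale and fell by 0.19 ± 0.0687 in mock cells (adjusted p = 1.43e-12 and 0.0212, edgeR). Psme3, which encodes the PA28 gamma subunit and is a relative of Psme1 and Psme2, was lower in T-N1G than in mock cells by a log2 change of -0.31 ± 0.0673 at 1.0 µM (adjusted p = 5.87e-04, edgeR). Its response to 1.0 µM was 0.14 ± 0.0674 in T-N1G and 0.15 ± 0.0672 in mock cells, neither past the threshold.

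Immunoproteasome transcripts were a small part of their constitutive counterparts in every group. Psmb8 stood at 2.94%, 0.722% and 4.07% of Psmb5 in FPKM in T-N1G cells at 1.0 µM and at 1.75%, 0.236% and 0.272% under vehicle. In mock cells it stood at 4.40%, 1.10% and 4.37% at 1.0 µM and at 0.453%, 0.260% and 0.306% under vehicle, the last 3 below all libraries at 1.0 µM. Psmb10 stood at 1.014%, 1.14% and 1.91% of Psmb7 in T-N1G cells at 1.0 µM and at 7.09%, 5.34% and 5.06% under vehicle, and in mock cells at 2.23%, 1.60% and 3.57% and at 5.05%, 5.30% and 4.82%. The ratio of Psmb10 to Psmb7 was lower in every library at 1.0 µM than in any vehicle library of its line, and Psmb9 was at most 0.889% of Psmb6 in any library.

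Interferon-stimulated and MHC class I genes moved with the same libraries as the members, and their part in the results was not tested. At 1.0 µM against vehicle, 22 of 32 tested interferon-stimulated genes rose in T-N1G and 27 of 32 in mock cells, and none fell, with median log2 changes of 1.52 and 2.50; 37.5% and 32.4% of all genes were called higher. Of the 16 MHC class I and peptide loading genes tested, 9 rose and 2 fell in T-N1G cells and 10 rose and 1 fell in mock cells (38.9% and 37.4% of all genes were called lower). H2-K1, a class I heavy chain, rose by 1.98 ± 0.579 in T-N1G and 2.22 ± 0.581 in mock cells on the log2 scale, and Nlrc5, the transactivator of class I genes, by 2.54 ± 0.639 and 2.29 ± 0.637 (adjusted p = 0.00673, 0.00386, 0.00244 and 0.00552, edgeR). Class I genes are near-identical copies whose fragments the counting may have split. Mx2, an antiviral GTPase, had 182 to 1729 fragments in T-N1G and 87 to 946 in mock libraries at 1.0 µM, against 13 to 56 and 4 to 11 under vehicle. The type I interferon gene Ifnb1 and the interferon-gamma gene Ifng had 0 to 2 and 0 to 1 fragments in all libraries.

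These genes were unevenly high within groups. The median log2 CPM of the 32 interferon-stimulated genes, each minus its mean over 18 libraries, was 0.46, -0.45 and -0.56 in T-N1G cells under vehicle and 0.89, 0.28 and 2.39 at 1.0 µM. In mock cells it was -0.88, -1.40 and -1.19 under vehicle and 1.09, -0.10 and 1.69 at 1.0 µM. Library 1 of T-N1G under vehicle held the highest level of its group for 30 of those 32 genes, 12 of 16 MHC class I genes and 6 of the 7 members, against 30.8% of all genes tested. Library 1 also held the highest level for 29 of 32 interferon-stimulated genes and 7 of 7 members in T-N1G cells at 0.3 µM (31% of all genes), for 24 of 32 and 4 of 7 in mock cells under vehicle (32.4%) and for 26 of 32 and 5 of 7 in mock cells at 0.3 µM (29.6%). Without the number 1 libraries of T-N1G, an alternative chosen after seeing the data, Tap2 alone was called at 0.3 µM against vehicle in T-N1G cells, and Tap2 and Psme2 were called between lines at 0.3 µM. Library 2 at 1.0 µM held the lowest level of its group for 29 of 32, 12 of 16 and 6 of 7 in T-N1G cells (34.8% of all genes) and for 30 of 32, 12 of 16 and 7 of 7 in mock cells (31.2%). For the 14 constitutive 20S core genes library 2 was lowest in 2 of 14 and 0 of 14. Without the number 2 libraries at 1.0 µM, 4 of 7 members were called in T-N1G cells (Psmb8, Psme1, Tap1 and Tap2) and 5 of 7 in mock cells (the same genes and Psmb9) at 1.0 µM against vehicle, where 77.3% and 70.9% of all genes tested in that fit were called. Each dose step then gave 5 of 7, where 63.5% were called in T-N1G and 52.6% in mock cells.

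**Figure D4:**
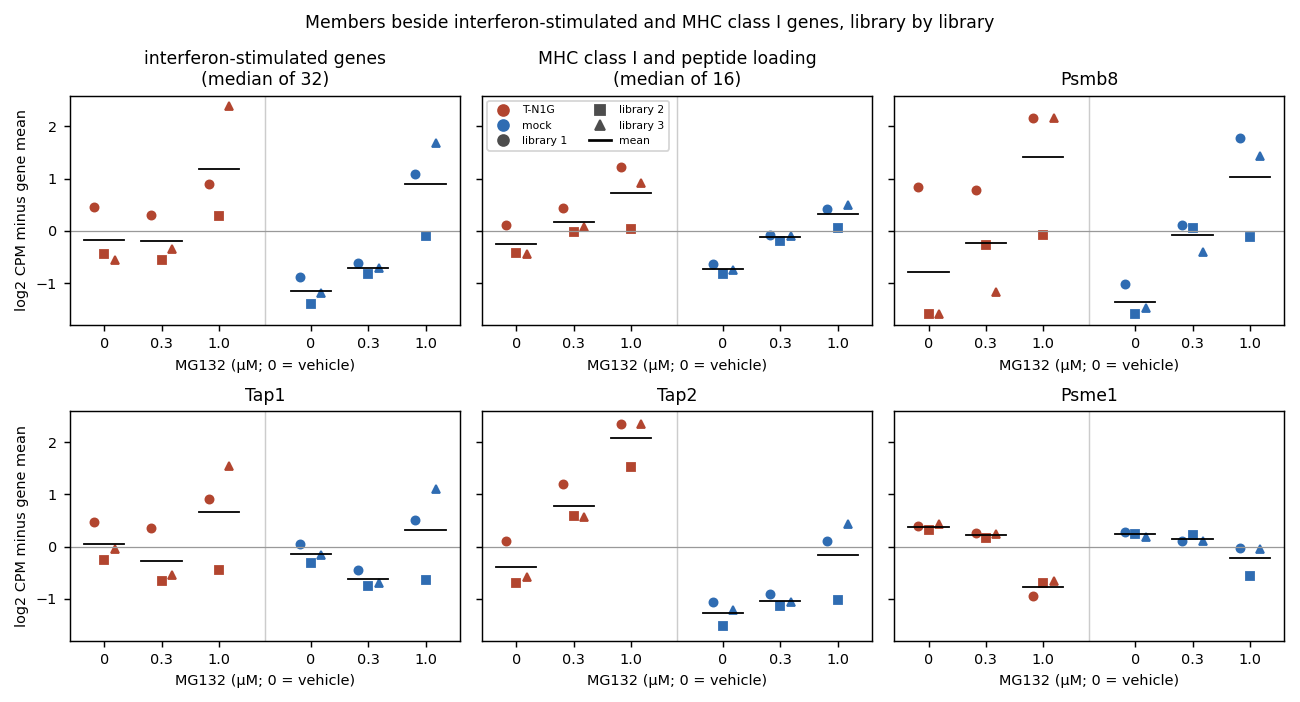
Log2 CPM minus each gene's mean over 18 libraries, for 4 of the genes and, as medians, for 32 interferon-stimulated and 16 MHC class I and peptide loading genes; points are libraries and bars are means of 3. Library 2 is the lowest of the 1.0 µM libraries for both lists and for Psmb8, Tap1 and Tap2 in both lines, and library 1 is the highest of the T-N1G vehicle libraries for the same lists and genes.

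Likeness was measured as the root mean square difference between profiles of 6 group means of log2 CPM, each centred on its own mean. Among the genes tested, Psmb9 and Tap1, the neighbours that share the printed stretch, ranked 283rd for Tap1 and 320th for Psmb9 in likeness to each other, at a difference of 0.263 log2 units. Tap2 ranked 11445th in likeness to Tap1, at 0.908 log2 units, and 3012th in likeness to Psmb8, at 0.814. In likeness to Tap2, Tap1 ranked 2174th and Psmb8 1356th, so the rank depends on the gene it is taken from. Adh7 and Chst15 were among the 3 genes most like Tap2, at 0.203 and 0.213 log2 units. Those most like Psme1 were Uri1, Egln2 and Gm2518 (0.066 to 0.0684), and those most like Psme2 were Ormdl2, Os9 and Rp2h (0.0431 to 0.0695). For Tap1 they were Tor4a, A430046D13Rik and Ube2l6 (0.063 to 0.0863), for Psmb8 Srgap1, Alox8 and Ltbp2 (0.0914 to 0.123), for Psmb9 Galnt10, Stac3 and Ispd (0.079 to 0.0984) and for Psmb10 Zfp866, Vamp4 and Tmem45a (0.0532 to 0.0566).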

How the data were processed

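Poly(A) RNA of 18 libraries was prepared with a strand-specific kit, per the labels' protocols. The submitters' processing notes name bcl2fastq 2.16.0.10, TopHat2 2.0.8b, Cuffdiff 2.1.1 and build mm9. Which annotation, filters and strand setting were used was not given in the sources used here. The deposited estimated counts of fragments per gene, which were 98.16 to 98.51% whole (within 1e-06), were rounded. The deposited FPKM carry the authors' Cuffdiff scaling and were used for levels per length, ratios and alternatives. Libraries were matched to the deposited table by condition name and number, a link the files do not spell out.

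The 2 genes the authors marked as too deep to count were left out. The main test was edgeR 4.0.16 (R 4.3.3) with TMM scaling, a low count filter (minimum 10), a quasi-likelihood fit of 6 group means and Benjamini-Hochberg adjustment over 13258 genes in each of 11 comparisons, called at an adjusted p of 0.05. SE is the log2 fold change divided by the root of F. The fit was run on simulated data with the same spread in all genes and groups, where only genes of higher counts were changed. That simulation cannot speak for genes as low as Psmb8 and Psmb9 or for the spread at 1.0 µM. Alternatives used DESeq2 1.42.0, limma 3.58.1 on log2 FPKM (pseudocounts 0.1 and 1), other scaling, no filter, fewer groups, a replicate block and fewer libraries. Depth limits precision most for Psmb8 and Psmb9. Intervals at 95% use that SE with a normal distribution, so they are narrower than the F test implies.

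The members and gene lists were chosen with earlier results of these data known. Beside the members, the text names Psmb5, Psmb6, Psmb7, Psme3, Psme4, up to 4 called genes of largest change per list and direction, and the 3 genes of nearest profile. Mafg and its relatives check labels. Psme2b, Emc9, Ifnb1, Ifng and single marker genes were named after their values were seen. Same-numbered libraries deviated together (every correlation over 0.1) in 2 of 15 pairs of groups, T-N1G at 0.3 µM with T-N1G vehicle and T-N1G with mock at 1.0 µM, so the numbers were taken to pair the samples there. Positions are mm9 as deposited, and promoter sequences are RefSeq's for GRCm38.p6.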

Additional observations from a re-analysis of the deposited data

Results flagged for a closer look

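The response to 1.0 µM MG132 differed between T-N1G and mock cells for 2 of the 7 genes by the test of the difference itself. For Psme1 the difference in log2 change was -0.71 ± 0.159 (adjusted p = 0.00146, edgeR): the change was -1.14 in T-N1G and -0.43 in mock cells. For Tap2 it was 1.26 ± 0.474 (adjusted p = 0.0419, edgeR): the change was 2.49 in T-N1G and 1.23 in mock cells. The Psme1 difference passed the threshold in every alternative and every fit without 1 library, and without the number 2 libraries at 1.0 µM it was -0.96. The Tap2 difference was 1.11 without those libraries (adjusted p = 0.0106) and was lost in 12 of 18 fits without 1 library.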

How the results depend on the processing

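Of the calls on single genes, those of Tap2 between lines at both doses and between each dose and vehicle in T-N1G cells, of Psme1 between lines at 1.0 µM and at 1.0 µM against vehicle in both lines, and of Psme2 between lines at 0.3 µM held in every alternative run and in all 18 fits without 1 library. So did the Psme1 interaction at 1.0 µM. Psme1 and Tap2 in the T-N1G dose step, and Psmb8 and Tap2 at 1.0 µM against vehicle in mock cells, also held in all 18 fits without 1 library. Scaling by library size alone put the median log2 change of all genes at -0.148 in T-N1G and -0.134 in mock cells at 1.0 µM, against -0.006 and -0.042 with TMM.

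Changes in the count of members called included the following, which is not a full list, and their cause was not tested. T-N1G against mock under vehicle (0 in the report) gave 2 with the replicate block, 2 with only the groups compared, 2 without the number 2 libraries at 1.0 µM and 1 with DESeq2. MG132 at 0.3 µM against vehicle in mock cells (0) gave 3 with only the groups compared and 1 without the number 2 libraries. The same comparison in T-N1G cells (2) gave 1 with DESeq2 size factors, 1 with no filter, 1 with the replicate block and 1 without the number 1 libraries of T-N1G. It also gave 1 with DESeq2, 1 with FPKM at either pseudocount and 5 with the block and only the groups compared. The share of all genes called in that last fit was not counted, so its 5 has no background beside it. Each dose step gave 5 without the number 2 libraries. The interaction at 0.3 µM (0) gave 1 with the replicate block, 1 with only the groups compared and 2 without the number 2 libraries, and that at 1.0 µM (2) gave 1 with no filter and 1 with only the groups compared. In the pair of comparisons where numbers pair the samples, the block left T-N1G against mock at 1.0 µM at 3, and with only the groups compared it added Tap1 (0.34, adjusted p = 0.0107).

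Leaving out 1 library at a time gave counts of 0 to 2 for T-N1G against mock under vehicle, 2 to 2 at 0.3 µM and 2 to 4 at 1.0 µM. Against vehicle the counts were 1 to 2 at 0.3 µM and 2 to 4 at 1.0 µM in T-N1G cells, and 0 to 0 and 3 to 4 in mock cells. The dose step gave 2 to 4 in T-N1G and 0 to 3 in mock cells, and the interactions gave 0 to 0 at 0.3 µM and 1 to 2 at 1.0 µM.

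The following log2 changes turned sign, none of them called in the report. For T-N1G against mock, Psmb8 was -0.32 under vehicle without the number 1 libraries of T-N1G. At 0.3 µM Psmb8 was -0.06 with the replicate block, -0.67 without the number 1 libraries, and -0.16 and -0.04 with FPKM at 0.1 and 1. At 1.0 µM Psmb9 was -0.03 with library size, -0.04 with no filter, -0.55 without the number 1 libraries, and -0.15 and -0.02 with FPKM. For 1.0 µM against vehicle in T-N1G cells, Psmb9 was 0.41 without the number 2 libraries, and Psme2 was 0.02 with DESeq2 size factors, 0.12 without the number 2 libraries and 0.01 with DESeq2. In mock cells Psme2 was 0.06 with DESeq2 size factors, 0.02 with no filter, 0.03 with only the groups compared, 0.16 without the number 2 libraries, 0.05 with DESeq2 and 0.03 with FPKM at either pseudocount. In the dose step Psmb10 was 0.05 and 0.07 without the number 2 and the number 1 libraries in T-N1G cells, and 0.07 without the number 2 libraries in mock cells. In the interaction at 1.0 µM Psmb8 was 0.53 without the number 1 libraries and Psmb10 -0.07 without the number 2 libraries.

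Over the 18 fits without 1 library, values that turned sign ranged as follows. For T-N1G against mock, Psmb8 spanned -0.32 to 1.58 and Tap1 -0.01 to 0.38 under vehicle, Psmb8 -0.67 to 0.42 at 0.3 µM, and Psmb9 -0.60 to 0.50 and Tap1 -0.17 to 0.84 at 1.0 µM. Against vehicle, Psmb8 spanned -0.41 to 1.83 at 0.3 µM in T-N1G cells, Psmb9 -0.63 to 0.40 and Psme2 -0.11 to 0.11 at 1.0 µM in T-N1G cells, and Psme2 -0.09 to 0.16 at 1.0 µM in mock cells. In the dose step Psmb10 spanned -0.24 to 0.07 in T-N1G and -0.40 to 0.07 in mock cells. In the interaction at 0.3 µM Psmb8 spanned -1.85 to 0.36, Psmb9 -0.56 to 0.18, Psmb10 -0.15 to 0.11 and Tap1 -0.21 to 0.42. At 1.0 µM Psmb8 spanned -1.14 to 0.76, Psmb10 -0.19 to 0.28 and Tap1 -0.40 to 0.61. All settings that leave out several libraries, and the block with only the groups compared, were chosen after seeing the data.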

Other observations

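Among genes of the same pathway, Ifngr2, which encodes a chain of the interferon-gamma receptor, fell at 1.0 µM MG132 against vehicle by 2.04 ± 0.110 in T-N1G and by 0.77 ± 0.105 in mock cells on the log2 scale (adjusted p = 1.3e-11 and 3.5e-06, edgeR), and the responses differed by -1.27 ± 0.150 (adjusted p = 2.32e-06, edgeR). Of the 17 interferon signalling genes tested, 5 rose and 6 fell in T-N1G cells, where 37.5% of all genes were called higher and 38.9% lower, and 9 rose and 5 fell in mock cells, where the shares were 32.4% and 37.4%. H2-Q7, a class Ib heavy chain, rose by 4.33 ± 0.268 in T-N1G and by 1.82 ± 0.295 in mock cells (adjusted p = 7.34e-11 and 2.64e-05, edgeR), with a difference of 2.51 ± 0.442 (adjusted p = 1.65e-04, edgeR), though its fragments may be shared with near-identical class I copies. Erap1, which trims peptides in the endoplasmic reticulum, fell by 1.02 ± 0.174 in T-N1G cells (adjusted p = 3.54e-05, edgeR) and had a value of -0.32 ± 0.174 in mock cells (adjusted p = 0.107).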
